A study of Mus musculus with 16 samples.

Results

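The 8 genes Mbp, Pmp22, Pmp2, Prx, S100b, Sox10, Mag and Egr2 are read as a Schwann cell and myelin group in skeletal muscle. They were taken by symbol from the tables of counts and FPKM (fragment counts scaled for gene length and library total), which list 35415 genes, and all 8 were present and passed the filter on low counts that left 14749 genes for testing. The symbols were chosen by their function with earlier results of the same counts in view and without a stated threshold or comparison, so the values below describe the genes and are not independent evidence about them. RNA came from the gastrocnemius, the main calf muscle, of male wild type BALB/c mice that were 8 weeks old when bought, and polyA RNA was sequenced from 4 mice in each of 4 groups.

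The C group carried no tumor and did not run, and the E group carried no tumor and ran on a treadmill. In the T group, CT26 colon carcinoma cells had been placed under the skin of the hind limb (2000000 cells per mouse) without running, and the TE group had both the tumor and the running. The belt moved at 14 m/min, and a session of 60 min was run on 6 days of each of 4 weeks. Mice without a tumor were anesthetized and injected with saline instead of cells, and mice that did not run stood on a treadmill at rest. All mice were thus anesthetized and injected in the limb, and each tumor came from a cell line of the host's own strain. Library totals lay between 35628211 and 37635741 counts. Summed FPKM of 6 skeletal muscle genes lay between 58966 and 67470 in every library, as the tissue label states.

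Schwann cells are the glia of peripheral nerve and reach muscle with the motor and sensory axons. Myelinating Schwann cells wrap large axons in a compact membrane that is rich in lipid and in a small set of proteins, while other Schwann cells hold thin axons or cap the neuromuscular junction without making myelin. Sox10 holds cells in the Schwann lineage and, with Egr2, turns on the genes of the sheath. The other glia that make myelin are the oligodendrocytes of brain and spinal cord, and of their genes Opalin was at 0 counts in every library and neither Mog nor Mobp passed the filter on low counts. Since the tissue was sequenced in bulk, fewer Schwann cells, a smaller piece of nerve in the sample and less of these RNAs per cell cannot be told apart in any value below.

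The transcription factor genes and their possible targets can be set side by side at the promoters. Promoter windows of 300 bases at RefSeq start sites (250 before the start and 50 after it) were searched for 5 of the 8 genes. Each window was found once in GRCm39. No window of Mbp, Pmp2 or Sox10 was searched, so nothing is said here about the letters at their promoters. Letters searched on both strands were ACAAAG and ACAATG, cores bound by SOX factors, and GCGTGGGCG and GCGGGGGCG, sites bound by EGR factors. Of all 32851 windows in the table, 18.7%, 12.6%, 0.612% and 2.91% held them, and among the 5 genes a match was found for Mag alone, in 2 of its 3 windows, which overlap each other. Windows are shown for Mag (chr7:30614239-30614538, minus strand), with the match to ACAAAG on the opposite strand in capitals, and for Prx (chr7:27198499-27198798, plus strand) and S100b (chr10:76089420-76089719, plus strand), which held none of these letters.
Mag: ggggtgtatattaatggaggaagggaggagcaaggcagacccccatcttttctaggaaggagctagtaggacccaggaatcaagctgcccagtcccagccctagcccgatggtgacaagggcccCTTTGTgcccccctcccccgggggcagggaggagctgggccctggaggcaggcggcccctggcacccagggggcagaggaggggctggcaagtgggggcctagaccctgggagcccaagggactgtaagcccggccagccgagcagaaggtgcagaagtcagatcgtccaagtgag
Prx: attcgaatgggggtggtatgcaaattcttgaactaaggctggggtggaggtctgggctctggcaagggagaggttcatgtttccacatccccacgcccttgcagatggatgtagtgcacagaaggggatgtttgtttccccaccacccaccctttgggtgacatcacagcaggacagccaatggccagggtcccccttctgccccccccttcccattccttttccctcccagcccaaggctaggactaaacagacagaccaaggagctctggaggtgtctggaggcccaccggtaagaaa
S100b: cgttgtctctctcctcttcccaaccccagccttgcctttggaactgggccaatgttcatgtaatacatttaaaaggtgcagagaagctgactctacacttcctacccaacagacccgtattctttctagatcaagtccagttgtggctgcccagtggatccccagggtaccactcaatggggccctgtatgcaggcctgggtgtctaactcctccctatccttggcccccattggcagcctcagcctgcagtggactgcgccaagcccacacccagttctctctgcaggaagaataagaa
A match describes letters and not a bound site, and no match says only that these letters are not in this window.

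In GRCm39, the structural genes lie at chr18:82493207-82603763 (Mbp, plus strand), chr11:63019718-63050600 (Pmp22, plus), chr3:10244786-10249724 (Pmp2, minus), chr7:27196813-27219639 (Prx, plus) and chr7:30598464-30614474 (Mag, minus). S100b lies at chr10:76085090-76097159 (plus), and the transcription factor genes lie at chr15:79039108-79049469 (Sox10, minus) and chr10:67371305-67378018 (Egr2, plus). All 8 are protein-coding. Exons of Mbp, Prx and Mag each overlap a noncoding gene on the opposite strand, and exons of Pmp2 overlap such a gene and a protein-coding gene model, Gm37389, on the same strand. The strand setting of the counting is not given in the sources used here, so reads in the overlaps could not be assigned to a gene with certainty, and this limit stays with the Pmp2 values in particular.

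Pmp22 had the highest deposited FPKM of the group and Egr2 the lowest. Mean FPKM in the C group was 80.5 for Pmp22, 11.3 for Mbp, 7.53 for Prx, 4.92 for Pmp2, 2.90 for S100b, 2.06 for Sox10, 1.42 for Mag and 0.290 for Egr2. The gene lengths behind these FPKM values depart from the exonic bases in the annotation, as for Egr2 (9083 against 3405 bases), Mag (2709 against 4960), Pmp2 (1364 against 2214) and Pmp22 (2605 against 4103), so the distance between Egr2 and Mag, and their order per length, are uncertain. Egr2 was also lowest without a length, at a mean of 2.60 CPM in C against 3.83 for Mag. In all 8 genes the T and TE groups had the lowest mean FPKM of the 4 groups, whereas 18.6% of all tested genes had both tumor group means of CPM (counts scaled to the library total, without gene length) under both tumor-free means. Neighbours in the order of group means overlapped in their single mice in 24 of 24 cases, so no gene separated adjacent groups.

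**Figure D1:**
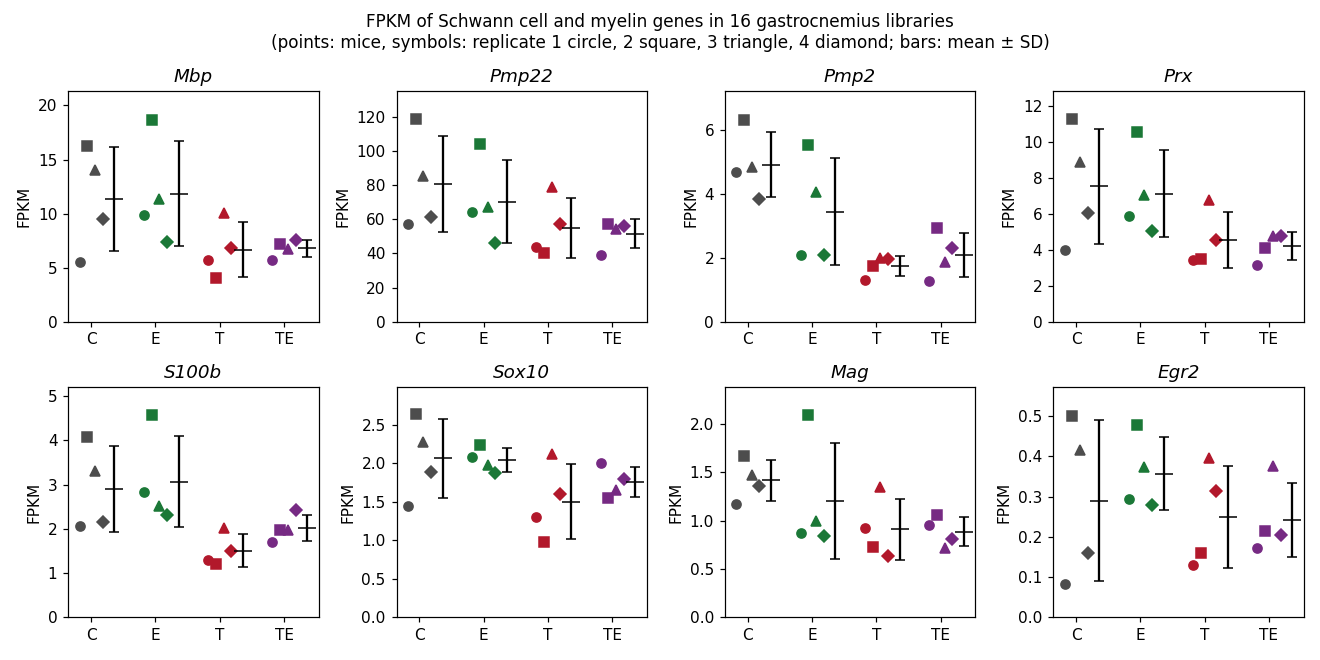
FPKM of each gene (y axis, from 0, a scale of its own per gene) in the C, E, T and TE groups (x axis), with 1 point per mouse, a symbol per replicate number and bars for the mean ± SD (n = 4). Pmp2 in the T group (1.30 to 1.99) sits under all C mice (3.84 to 6.32), as S100b in the T group (1.20 to 2.02) does (2.06 to 4.08 in C), and in all 8 genes neighbouring group means have overlapping mice.

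Pmp2 encodes the myelin P2 protein, a fatty acid binding protein found in the cytoplasm of peripheral myelin. Its FPKM in the C mice was 4.69, 6.32, 4.84 and 3.84, and in the T mice 1.30, 1.73, 1.99 and 1.96. The E mice gave 2.1, 5.54, 4.07 and 2.1, and the TE mice 1.26, 2.93, 1.87 and 2.30. No T mouse reached the lowest C mouse, whereas the E group spread over values found in the C and in the TE mice. Raw counts ranged from 190 to 317 in the C group and from 65 to 102 in the T group. Pmp2 was 0.361 times as high in the T group as in the C group (log2 fold change -1.47, SE 0.30, edgeR quasi-likelihood adjusted p = 0.0338), and it was the only gene of the 8 past the threshold in that comparison, where 0.678% of all tested genes passed and 0.285% passed with a fold over 2 as well, as Pmp2 did. The call was lost when any of the C1, C2, C3, C4, T1 and T3 libraries was left out (edgeR adjusted p between 0.0578 and 0.105), with log2 fold changes between -1.57 and -1.34 over all libraries left out in turn. It was lost as well without the 3 libraries that were high in lymph node genes (log2 fold change -1.49, edgeR adjusted p = 0.0585). The call was kept in 15 of 22 other settings and left-out libraries, among them DESeq2 (adjusted p = 0.00022), where 2.81% of the genes with an adjusted p passed. Mean FPKM ± SD (n = 4) was 4.92 ± 1.03 in C, 3.45 ± 1.67 in E, 1.75 ± 0.317 in T and 2.09 ± 0.703 in TE.

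S100b encodes a calcium-binding protein that is abundant in Schwann cells and also made by adipocytes. In the C mice its FPKM was 2.06, 4.08, 3.31 and 2.16, and in the T mice 1.30, 1.20, 2.02 and 1.51. The E mice gave 2.83, 4.56, 2.51 and 2.32, and the TE mice 1.69, 1.98, 1.97 and 2.43. All T mice lay under the lowest C mouse, by a margin as small as 2.02 against 2.06, and 1 TE mouse lay above the lowest E mouse. Compared with the C group, the T group had a log2 fold change of -0.92 (SE 0.25, edgeR adjusted p = 0.0994), which did not pass with edgeR and passed with DESeq2 (adjusted p = 0.018), where 2.81% of the genes with an adjusted p passed. Adipocyte genes were mostly higher beside it. Of 9 adipocyte genes, 8 were higher and 1 lower in T than in C with 0 past the threshold and 0 at an unadjusted p under 0.05 (edgeR), and their summed FPKM was 456 to 644 in C and 480 to 771 in T. In TE against E, by contrast, 2 adipocyte genes were higher and 7 lower (median -0.53), beside -0.55 for S100b, and in E against C 9 were higher and 0 lower (median 1.34). With edgeR 0 passed in both, and 0 and 4 had an unadjusted p under 0.05. The part of fat cells in the S100b values was not tested.

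Among the genes of the compact sheath, Mbp encodes myelin basic protein, which binds the inner faces of the membrane together, and Pmp22 encodes a membrane protein of compact peripheral myelin whose dosage is critical in hereditary neuropathy. FPKM of Mbp was 5.53, 16.3, 14.1 and 9.53 in C, 9.83, 18.7, 11.4 and 7.41 in E, 5.68, 4.05, 10.1 and 6.86 in T and 5.75, 7.15, 6.71 and 7.58 in TE. The C1 mouse was as low as the tumor-bearing mice, and the T3 mouse was as high as tumor-free mice, so the T and C groups overlapped. FPKM of Pmp22 was 57.0, 119, 85.1 and 61.4 in C, 64.3, 104, 67.0 and 45.7 in E, 43.7, 40.1, 79.0 and 57.2 in T and 38.8, 57.0, 54.2 and 56.1 in TE. Here too C2 and E2 were highest, T3 lay within the C range, and the groups overlapped. The T group differed from the C group by a log2 fold change of -0.74 for Mbp (SE 0.31, edgeR adjusted p = 0.277) and -0.52 for Pmp22 (SE 0.25, edgeR adjusted p = 0.362), neither past the threshold. Without the C2 library these came to -0.52 for Mbp and -0.29 for Pmp22.

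Prx encodes periaxin, a scaffold of the outer Schwann cell membrane that is needed to keep myelin stable, and Mag encodes a glycoprotein of the innermost membrane, which faces the axon. FPKM of Prx was 3.98, 11.2, 8.88 and 6.02 in C, 5.86, 10.5, 7.03 and 5.03 in E, 3.43, 3.50, 6.74 and 4.54 in T and 3.16, 4.11, 4.77 and 4.76 in TE. All TE mice lay under the lowest E mouse, while T and C overlapped through C1 and T3. FPKM of Mag was 1.17, 1.67, 1.47 and 1.35 in C, 0.869, 2.09, 1.00 and 0.837 in E, 0.928, 0.733, 1.35 and 0.633 in T and 0.958, 1.06, 0.714 and 0.815 in TE. The E2 mouse stood above every other mouse for Mag, and the remaining E mice lay among the tumor-bearing mice. Prx differed by -0.70 (SE 0.28, edgeR adjusted p = 0.261) and Mag by -0.61 (SE 0.28, edgeR adjusted p = 0.339) on the log2 scale between T and C. Neither gene passed. Of this pair, the Mag window printed above holds the SOX core letters and the Prx window does not.

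Of the transcription factor genes, Egr2 had the lowest FPKM of the 8 and Sox10 had the smallest relative spread across the libraries. FPKM of Sox10 was 1.45, 2.64, 2.27 and 1.89 in C, 2.07, 2.23, 1.98 and 1.87 in E, 1.30, 0.972, 2.12 and 1.60 in T and 2.00, 1.55, 1.65 and 1.80 in TE. The E mice lay close together, T2 was lowest, and T overlapped C. FPKM of Egr2 was 0.0834, 0.50, 0.415 and 0.161 in C, 0.295, 0.478, 0.374 and 0.280 in E, 0.129, 0.159, 0.396 and 0.315 in T and 0.171, 0.215, 0.376 and 0.204 in TE. The lowest and the highest Egr2 values of the study were both in the C group, at 27 counts in C1 and 167 in C2. Across the 16 libraries the coefficient of variation of CPM was 20.7% for Sox10, 33.6% for Pmp22, 35.0% for Mag, 38.1% for S100b, 41.0% for Prx, 43.6% for Mbp, 44.5% for Egr2 and 51.8% for Pmp2. The T group differed from C by -0.43 for Sox10 (SE 0.20, edgeR adjusted p = 0.324) and by -0.19 for Egr2 (SE 0.45, edgeR adjusted p = 0.894) on the log2 scale. Egr2 is also an immediate early gene that answers to many stimuli, and of 10 other immediate early genes 5 were higher and 5 lower in T, with 0 past the threshold and 1 higher at an unadjusted p under 0.05 (edgeR).

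The question put to T and C is what a CT26 tumor does to the muscle of mice that do not run. All 8 genes had lower fitted levels in T, with a median log2 fold change of -0.65, against -0.0012 over all genes tested. In direction alone 50.3% of all genes were lower. At an unadjusted p under 0.05, 6 of the 8 were lower, all but Pmp22 and Egr2, against 5.96% of all genes. CPM of T did not overlap that of C in 2 of the 8, Pmp2 and S100b, against 2.83% of all genes lower without overlap. Without the 3 libraries high in lymph node genes, Egr2 turned to 0.027 and the other 7 kept their direction.

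The same question in mice that ran is put by TE and E, which share no mouse with T and C. The genes were chosen with earlier results of these counts in view and vary together, so this is not an independent repeat. All 8 genes had lower fitted levels in the tumor-bearing group, where 49.2% of all genes were lower, and the median log2 fold change was -0.53. None of the 8 passed with edgeR (0 by DESeq2 as well), where 0.231% of all genes passed, and 4 were lower at an unadjusted p under 0.05, against 5.53% of all genes. These were Mbp (-0.75, edgeR adjusted p = 0.446), Prx (-0.71, edgeR adjusted p = 0.428), Pmp2 (-0.67, edgeR adjusted p = 0.505) and S100b (-0.55, edgeR adjusted p = 0.499). Without the E2 library they came to -0.43, -0.45, -0.34 and -0.28, in that order. Prx alone had TE values without overlap, where 3.95% of all genes were lower in that way. The smallest of the 8 differences was that of Sox10 (-0.17, 95% interval -0.58 to 0.24). Genes of other cell types were lower beside them, with 7 of 7 fibroblast genes (median -0.44, 5 at an unadjusted p under 0.05) and 5 of 5 genes of the perineurium (median -1.19, 5 at an unadjusted p under 0.05) lower in TE than in E and 0 past the threshold (edgeR). In T against C, 4 fibroblast genes were higher and 3 lower, with a median of 0.078, 0 past the threshold and 1 higher at an unadjusted p under 0.05 (edgeR). The part of these cells in the differences was not tested.

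**Figure D2:**
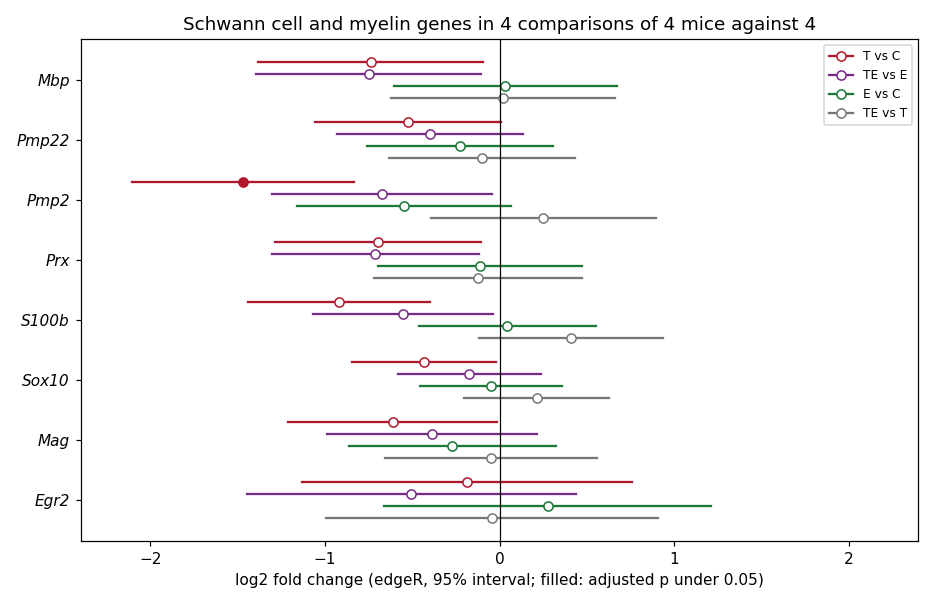
Fitted log2 fold change of each gene (x axis, edgeR) with its 95% interval for T vs C, TE vs E, E vs C and TE vs T, with filled points for an adjusted p under 0.05. All 16 points of the tumor comparisons lie under 0, and Pmp2 in T vs C (-1.47) is the only filled point.

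Averaged over the mice that did and did not run, a contrast added after these values had been seen, the tumor-bearing mice were lower in all 8 genes. With edgeR 2 genes passed, where 1.36% of all genes did, and 1 of them, Pmp2, also had a fold over 2, where 0.366% of all genes did. Pmp2 differed by -1.07 on the log2 scale (SE 0.21, edgeR adjusted p = 0.0154) and kept an adjusted p under 0.05 in 21 of 21 other settings and left-out libraries (6.6e-05 to 0.0413). S100b differed by -0.73 (SE 0.17, edgeR adjusted p = 0.0436) and passed in 8 of 21 (0.0032 to 0.129). Its call was lost when any of C2, C3, E1, E2, E3, T1, T2, T4, TE1, TE2 and TE3 was left out. Mbp (-0.74, edgeR adjusted p = 0.107) and Prx (-0.70, edgeR adjusted p = 0.0986) did not pass, and each passed in 3 of the 21. At an unadjusted p under 0.05, 7 of the 8 were lower, all but Egr2, against 6.81% of all genes, and 49.8% of all genes were lower in direction. Markers of other cells moved in the same contrast, with 5 of 5 genes of the perineurium lower (median -0.74, 1 past the threshold and 4 at an unadjusted p under 0.05, edgeR). Of 6 endothelial genes, 3 were lower (2 past the threshold and 3 at an unadjusted p under 0.05, edgeR). The other 3 were higher (0 past the threshold and 1 at an unadjusted p under 0.05, edgeR), and the median of the 6 was -0.043. Their part in the differences was not tested.

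In the comparisons of mice that ran with mice that did not, none of the genes separated the groups. In E against C, 3 of the genes were higher and 5 lower (50.6% and 49.4% of all genes), with log2 fold changes from -0.55 for Pmp2 (95% interval -1.16 to 0.06) to 0.28 for Egr2 (95% interval -0.66 to 1.21), and the median was -0.079. With edgeR 0 of the 8 passed (0 by DESeq2) and 0 had an unadjusted p under 0.05. Of all genes 0.0881% passed, and 8.51% were higher and 5.67% lower at an unadjusted p under 0.05. In TE against T, 4 were higher and 4 lower (50.5% and 49.5% of all genes), from -0.12 for Prx (95% interval -0.72 to 0.47) to 0.41 for S100b (95% interval -0.12 to 0.94). Again 0 of the 8 passed with edgeR (0 by DESeq2), and 0 had an unadjusted p under 0.05. Of all genes 0% passed, and 2.87% were higher and 3.01% lower at an unadjusted p under 0.05. E vs C shares the C mice with T vs C, and TE vs T shares the T mice with it.

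Whether the tumor acted differently in mice that ran was tested as the interaction of tumor and exercise. With edgeR 0 of the 8 passed (0 by DESeq2), as did 0% of all genes, and 0 had an unadjusted p under 0.05, where 3.7% of all genes were higher and 5.51% lower. In direction 5 of the 8 were higher and 3 lower, against 49.8% and 50.2% of all genes. Pmp2 had the largest difference, 0.80 on the log2 scale (95% interval -0.09 to 1.69, edgeR adjusted p = 0.574), since TE and E were closer together than T and C. Mbp and Prx differed between the training states by -0.013 each, with 95% intervals of -0.92 to 0.89 and -0.85 to 0.82. Both intervals are wide on either side of 0, so equal differences in the 2 training states were not shown.

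The 8 genes varied together from mouse to mouse. Over 28 pairs, Pearson's r of log2 CPM across the 16 libraries ranged from 0.270 to 0.961 with a median of 0.751. By permutation tests with 100000 resamples, adjusted over the 28 pairs, 25 had an adjusted p under 0.05 for Pearson's r and 25 for Spearman's rho. The 3 other pairs were Pmp2 with Sox10 (r 0.473), Pmp2 with Egr2 (r 0.299) and Mag with Egr2 (r 0.270). Mbp and Prx were closest (r 0.961 and rho 0.95, each with a permutation p of 1e-05, the smallest that these resamples can give), at 0.933 without the 2 libraries farthest from the median of Mbp and 0.954 with group means subtracted.

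Much of this covariation lay within the groups. With group means subtracted, the median r was 0.715 (0.144 to 0.954), and it was 0.815 in the 8 tumor-free and 0.516 in the 8 tumor-bearing mice. Without the 2 libraries farthest from the median of the first gene of each pair, the median fell to 0.614 and the lowest r was -0.110, for Mag with Egr2. The C2, C3 and E2 libraries were among the highest 4 of 16 in all 8 genes. Among the lowest 4 were T2 in 8 genes, T1 in 7 and TE1 in 5. Single mice did not follow their group, as C1 lay under the mean of the 16 libraries (by an average of -0.391 SD over the 8 genes) and T3 above it (0.392 SD).

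**Figure D3:**
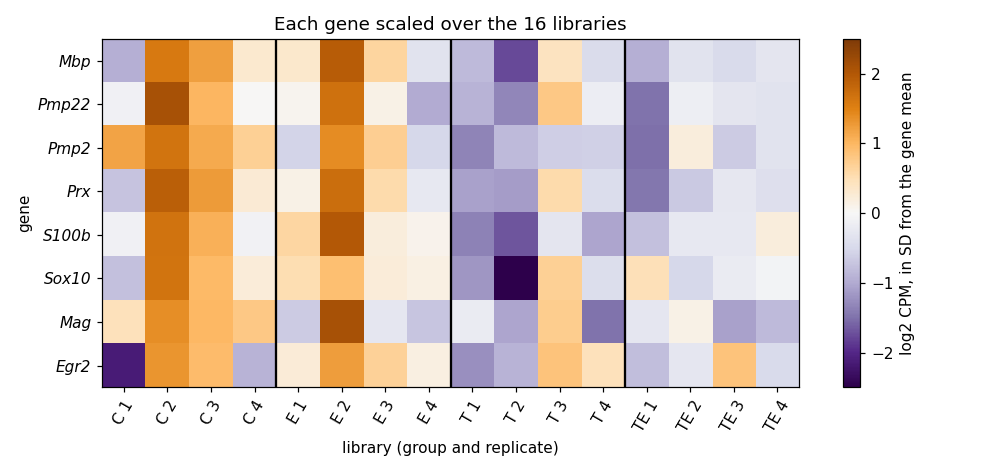
Log2 CPM of each gene (rows), scaled as SD from its mean over the 16 libraries (color), with libraries ordered by group and replicate on the x axis. C2, C3 and E2 are high in all 8 genes, T1, T2 and TE1 are low in most, and Egr2 in C1 is its lowest value.

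**Figure D4:**
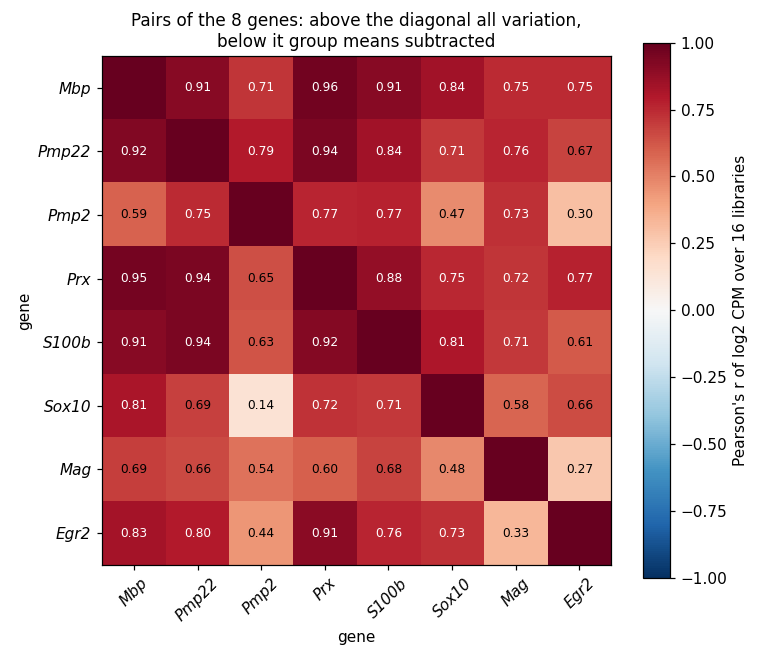
Pearson's r of log2 CPM for each pair of genes over 16 libraries, above the diagonal as measured and below it with group means subtracted (color, from -1 to 1). The pairs among Mbp, Pmp22, Prx and S100b are all dark (0.838 to 0.961), as is Mbp with Sox10 (0.843), and Pmp2 with Sox10 drops from 0.473 to 0.144.

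Other genes of the myelin sheath ran with the 8. Ranked by Pearson's r with the mean of the 8 scaled genes over 16 libraries, the leading 10 of 14739 other tested genes were Vat1l (0.961), Plekha4 (0.950), Cldn19 (0.946), Ugt8a (0.933), Pllp (0.931), Mal (0.919), Drp2 (0.917), Pea15a (0.913), Itgb8 (0.912) and Cd9 (0.910). Cldn19 encodes a tight junction protein of Schwann cells, Ugt8a makes the galactolipids of myelin, Pllp and Mal are lipid raft proteins of myelin, and Drp2 is a partner of periaxin. The median r over all genes was -0.0125, and 52 genes were above 0.8. These ranks describe shared variation among the same libraries and carry no test.

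By single gene, Vat1l was closest to Pmp22 (0.976) and Pllp to Prx (0.965), and the genes closest to Mbp were Prx (0.961) and Plekha4 (0.957). Itgb8 was closest to S100b (0.911), Cd9, a tetraspanin of Schwann cells and many other cells, to Sox10 (0.908), Bcas1 to Mag (0.815) and Usp6nl to Egr2 (0.910). For Pmp2 the closest genes were Zfp273 (0.844), Hmgcs1 (0.827), an enzyme of sterol synthesis, and 5930403L14Rik (0.826). With group means subtracted, r was 0.555, 0.546 and 0.849 for these. Its own highest r within the group was 0.794, with Pmp22.

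In the wider lists of myelin and Schwann cell genes, the median differences in T against C and in TE against E were closer to 0. Of 11 other myelin protein genes, 11 were lower in T than in C and 11 lower in TE than in E, with medians of -0.37 and -0.36 on the log2 scale. With edgeR 0 of them passed in either comparison, and 3 and 1 were lower at an unadjusted p under 0.05. Of all genes, 50.3% and 49.2% were lower in direction, and 5.96% and 5.53% were lower at an unadjusted p under 0.05. These shares hold for the lists below in the same comparisons. Median r of these 11 with the mean of the 8 was 0.889, and 7 of them were above 0.8.

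Of 9 genes of myelin lipid and sterol synthesis, 9 were lower in T than in C, and 1 was higher and 8 lower in TE than in E (median -0.23), with 0 past the threshold in both (edgeR) and 3 and 1 lower at an unadjusted p under 0.05. Averaged over both training states Hmgcs1, an early enzyme of sterol synthesis that is not particular to Schwann cells, passed at -0.24 on the log2 scale (edgeR adjusted p = 0.0188). Of 11 genes that regulate Schwann cells 9 were tested, of which 4 were higher and 5 lower in T than in C and 9 were lower in TE than in E, with 0 past the threshold in both (edgeR), and 1 higher and 2 lower at an unadjusted p under 0.05. In E against C, which shares the E mice with that second comparison, 8 of these regulators were higher and 1 lower (median 0.24), with 0 past the threshold and 2 higher at an unadjusted p under 0.05 (edgeR). The interaction of tumor and training was below 0 for 9 of the 9 (median -0.30), with 0 past the threshold and 1 lower at an unadjusted p under 0.05 (edgeR). Genes of the node and of axon contact gave 3 higher and 5 lower of 8 in T against C and 8 lower of 8 in TE against E, again with 0 past the threshold (edgeR) and 1 and 3 lower at an unadjusted p under 0.05. In E against C, 5 of them were higher and 3 lower, with 0 past the threshold and 2 higher at an unadjusted p under 0.05 (edgeR). Of all genes, 8.51% were higher at that level in E against C and 5.51% lower in the interaction. In T against C, 1214 of 14749 genes were higher at that level.

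Of 11 genes of non-myelinating and repair Schwann cells, which are raised after nerve injury, 6 were tested, 4 higher and 2 lower in T than in C with 0 past the threshold and 0 at an unadjusted p under 0.05 (edgeR). In TE 1 was higher and 5 lower against T, and 1 higher and 5 lower against E, with 0 past the threshold in both (edgeR) and 2 and 0 lower at an unadjusted p under 0.05. Of all genes, 3.01% and 5.53% were lower at that level in these comparisons. Median r of the non-myelinating and repair genes with the mean of the 8 genes was 0.251. Of 11 genes of axons and motor neurons 4 were tested, and 3 were higher and 1 lower in T than in C with 0 past the threshold and 0 at an unadjusted p under 0.05 (edgeR). Of 5 melanocyte genes, a lineage that shares Sox10 and S100b, 1 (Tyrp1) was tested.

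Lymph node genes marked 3 libraries that stand apart. Summed FPKM of 12 such genes was 46.7 in C3, 44.2 in E1 and 139 in TE4. The next highest were E2 (28.4) and C2 (21.8), which with C3 were the highest libraries for the 8 Schwann cell and myelin genes, and the 4 T mice lay between 5.40 and 11.5. Lymph node genes were thus low in T beside the 8 genes, with 1 higher and 11 lower in T than in C, a median log2 difference of -4.10, 0 past the threshold and 7 lower at an unadjusted p under 0.05 (edgeR). In TE against E, 11 were higher and 1 lower, with 0 past the threshold and 0 at an unadjusted p under 0.05 (edgeR). That direction came with the TE4 library alone. Summed FPKM was 9.20 in TE1, 9.51 in TE2 and 7.36 in TE3, under every E mouse (14.7 to 44.2). Median r of the lymph node genes with the mean of the 8 genes was 0.479. The part of this tissue in the results was not tested beyond leaving out C3, E1 and TE4.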

How the data were processed

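PolyA RNA of the gastrocnemius of 16 mice was sequenced, 4 per group, with the group and replicate of each library as labelled. According to the submitters' processing notes, fastp 0.20.1, HISAT2 2.1.0, HTSeq 0.11.2 and GRCm39 were used. The authors deposited raw counts per gene, and the authors also deposited FPKM values, which were used here for levels only. The annotation release and the strand setting of the counting are not given in the sources used here. Library totals of 35628211 to 37635741 counts make 3 counts at most 0.0842 CPM, and PCR copies could not be told from separate molecules.

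Counts of 14749 genes that passed filterByExpr were fitted with edgeR 4.0.16 in R 4.3.3 (TMM factors, quasi-likelihood test, 1 coefficient per group, all 16 libraries), and two-sided p-values were adjusted by the Benjamini-Hochberg method over all tested genes. A gene passed with an adjusted p under 0.05. Intervals of log2 fold changes are 95% intervals of that fit. Correlations used log2 CPM with a prior count of 2 and permutation tests. The script was tested on simulated counts. Positions are from GENCODE vM39, and promoter sequences are from the RefSeq table. Alternatives were DESeq2 1.42.0, its size factors, no filter, a 2-fold threshold, unadjusted p-values, only the groups compared, a replicate block, FPKM scales and left-out libraries. The 8 genes, the lists and the tests were chosen with earlier results of these data known. Named genes were the 8, the genes most correlated with them, and list genes that passed or were most abundant. Some genes of the lists are not reported here, and they were left out of the lists and of the ranking by correlation. Figures were drawn with matplotlib 3.10.9.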

Additional observations from a re-analysis of the deposited data

Results flagged for a closer look

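Of the 32 sets of 4 mice (8 genes in 4 groups), 2 held a mouse far from the other mice of its set by Dixon's criterion, and chance marks about 1 in 20. Pmp22 in the TE group had 100.5 CPM in replicate 1, under the 143 to 152 CPM of the other TE mice. Mag in the E group had 5.59 CPM in replicate 2, above the 2.24 to 2.58 CPM of the other E mice, and without that library the Mag difference between TE and E turned to 0.034 on the log2 scale.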

How the results depend on the processing

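In T against C, 1 of the 8 genes passed with edgeR, against 2 with DESeq2, 0 without the 3 libraries high in lymph node genes and 6 with unadjusted p-values, and 0 to 1 with a library left out. In TE against E, the count was 0 and became 4 with unadjusted p-values. Averaged over both training states, 2 passed, against 4 without a filter on low counts, 1 with a replicate block, 1 without the 3 lymph node libraries, 1 with an added 2-fold threshold and 7 with unadjusted p-values, and 1 to 4 with a library left out. The cause was not tested, beyond the smaller number of libraries in some. With the replicate block S100b came to -0.70 on the log2 scale (edgeR adjusted p = 0.0571), and no other count of passing genes moved. The labels give biological replicate numbers and do not say whether same-numbered mice shared an origin. Same-numbered mice deviated together by correlations of -0.24 to 0.21, and 5 of 16 libraries were closest to their own number. A shared origin cannot be told from these values.

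Over all 6 contrasts, 5 of 272 log2 fold changes under other settings and 43 of 768 with a library left out reversed, none of them for the tumor averaged over both training states. Without the 3 lymph node libraries, reversed values were 0.027 for Egr2 in T against C, 0.056 for Prx in E against C, and -0.017, 0.0076 and 0.045 for Mbp, Mag and Egr2 in TE against T. With a library left out, Egr2 in T against C ranged from -0.48 to 0.21 and Mag in TE against E from -0.52 to 0.034. In E against C the ranges were -0.28 to 0.25 for Mbp, -0.49 to 0.0099 for Pmp22, -0.37 to 0.14 for Prx, -0.22 to 0.24 for S100b, -0.17 to 0.084 for Sox10 and -0.023 to 0.67 for Egr2. In TE against T they were -0.15 to 0.27 for Mbp, -0.22 to 0.11 for Pmp22, -0.22 to 0.11 for Prx, -0.18 to 0.19 for Mag and -0.35 to 0.25 for Egr2. For the interaction they were -0.23 to 0.31 for Mbp, -0.11 to 0.39 for Pmp22 and -0.26 to 0.25 for Prx. The median r over pairs of genes was 0.715 to 0.789 under other scales and measures and 0.700 to 0.802 with a library left out, against 0.614 without the 2 libraries farthest from the median and 0.516 in the tumor-bearing mice alone.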

Other observations

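The perineurium is the cell layer around nerve bundles. Of 5 genes of that layer, 5 were lower in TE than in E and 5 were higher in E than in C, with 0 past the threshold (edgeR) and 5 and 2 at an unadjusted p under 0.05, where 5.53% of all genes were lower and 8.51% higher in these comparisons. Both comparisons share the E mice. In T against C, 1 was higher and 4 lower, with a median log2 difference of -0.36, 0 past the threshold and 1 lower at an unadjusted p under 0.05 (edgeR). Averaged over both training states Cldn1, a tight junction protein, fell by 1.48 on the log2 scale (edgeR adjusted p = 0.00883), and mean FPKM ± SD (n = 4) was 1.79 ± 0.291 in C, 2.68 ± 0.526 in E, 0.699 ± 0.444 in T and 0.843 ± 0.455 in TE.

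Of 6 endothelial genes, 3 were higher and 3 lower in T than in C, with 2 higher and 2 lower at an unadjusted p under 0.05 (edgeR), and 3 were higher and 3 lower averaged over both training states. Kdr, a receptor for vascular growth factor, was lower in T than in C (log2 fold change -0.68, edgeR adjusted p = 0.0457), and averaged over both training states Kdr (-0.69, edgeR adjusted p = 0.00233) and Emcn (-0.40, edgeR adjusted p = 0.0189) passed, where 0.678% of all genes passed in T against C and 1.36% averaged over both training states. Vwf (0.62, edgeR adjusted p = 0.0741) and Pecam1 (0.37, edgeR adjusted p = 0.231) had values above 0 in T against C and did not pass. Of 9 tested genes that muscle raises when it loses its nerve, 7 were higher and 2 lower in T than in C, with 0 past the threshold and 2 higher at an unadjusted p under 0.05 (edgeR). At that level 1214 of 14749 genes were higher. TE against E gave 7 higher and 2 lower, 2 of them higher at that level, where 546 of 14749 genes were. TE against T gave 4 higher and 5 lower, with 0 at that level. Averaged over both training states, Gadd45a passed at 0.39 (edgeR adjusted p = 0.0402). Of 7 fibroblast genes, 7 were higher in E than in C, with 0 past the threshold and 7 at an unadjusted p under 0.05 (edgeR), against 50.6% of all genes higher and 8.51% higher at an unadjusted p under 0.05, and 7 were lower in TE than in E, which shares the E mice.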
